A study of Mus musculus with 6 samples.

Results

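The genes described here encode the 3 families of scaffold proteins that hold the excitatory postsynapse together: Shank1, Shank2 and Shank3, Homer1, Homer2 and Homer3, and Dlgap1, Dlgap2, Dlgap3 and Dlgap4. They were taken by symbol, 10 rows of the 23420 in the count table. All 10 had enough reads to be tested, among 14618 genes tested in all. RNA was sequenced from mouse neocortex at embryonic day 18.5, in 3 libraries labelled Tshz3 mutant, whose titles call them KO, and 3 labelled wild type. Tshz3, a teashirt-family gene, encodes a transcription factor with zinc fingers. Every library came from a separate pool of 3 to 4 embryos drawn from several litters. The sources used here do not give the mutant allele, the strain or the sex of the embryos. Same-numbered libraries of the 2 genotypes (1, 2 and 3) are not said to share anything.

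Shank, Homer and Dlgap proteins form the deep layer of the postsynaptic density, the protein mesh beneath an excitatory synapse. Dlgap proteins (also called GKAP or SAPAP) link the Dlg scaffolds, which bind NMDA receptors, to the PDZ domain of Shank. Shank binds Homer through a proline-rich stretch, and Homer in turn binds group I metabotropic glutamate receptors and calcium release channels, so the chain joins both receptor types to internal calcium stores and actin. SHANK2 and SHANK3 are known autism genes in people, and at the end of gestation cortical synapse formation has only begun.

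The counts did not check the genotype labels: Tshz3 itself stood at 89.8, 93.1 and 99.2 CPM in mutant-labelled libraries 1 to 3 and at 78.7, 83.0 and 89.3 CPM in wild type (log2 fold change 0.17, SE 0.07, edgeR adjusted p = 0.669). CPM stands for the reads of a gene scaled to a common total in every library, adjusted for library composition. Total counts ran from 18569383 to 24147810 per library. As a check of the tissue label, the 8 cortical projection neuron markers summed to 2102 to 2314 CPM in mutant-labelled and 1928 to 2184 CPM in wild-type libraries.

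Of the members, 3 lie on chromosome 7 with Tshz3 (36698118 to 36773553, GRCm38, plus strand). Shank1 spans 44310253 to 44360572, starting 7.54 Mb beyond the end of Tshz3. Homer2 spans 81600481 to 81707527 on the minus strand, 44.8 Mb away, and Shank2 spans 144001928 to 144424494, 107 Mb away. Shank3 lies on chromosome 15 from 89499623 to 89560261 and Homer1 on chromosome 13 from 93299635 to 93405129. Homer3 (70282827 to 70294361) and Dlgap2 (14095865 to 14847680) are both on chromosome 8. Dlgap1 is on chromosome 17 from 69969073 to 70821413, Dlgap3 on chromosome 4 from 127169204 to 127237022 and Dlgap4 on chromosome 2 from 156613705 to 156764363. These are whole GENCODE gene intervals, exons and introns included, and the table gives 1 count per gene. The genes range from 11.5 kb for Homer3 to 852 kb for Dlgap1. Exons of Homer3 overlap those of Ddx49 on the other strand over 874 bases. Shank1 shares 339 exonic bases in the same way with 1700008O03Rik, and Dlgap4 shares 24 with 4930405A21Rik. The sources used here do not give the strand setting of the counting, so these 3 counts are uncertain. Shank3, Homer2 and Dlgap1 share 271, 525 and 92 exonic bases with opposite-strand noncoding genes that have no row in the table.

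The promoters of 2 members are shown because Homer1 and Shank3 bear letters that activity-regulated factors recognise, while Egr1 itself was lower in the mutant-labelled libraries. The RefSeq table of GRCm38.p6 holds windows for 7 of the 10 members, 10 windows in all, each of 300 bases from 250 before a transcript start. Both strands were searched for the cAMP response element TGACGTCA, its shorter form TGACG, which lies within it, and 2 forms of the Egr binding site, GCGGGGGCG and GCGTGGGCG. Capitals mark the matches. The first Homer1 window is chr13:93303507-93303806 and the Shank3 window is chr15:89499358-89499657, both on the plus strand.
Homer1: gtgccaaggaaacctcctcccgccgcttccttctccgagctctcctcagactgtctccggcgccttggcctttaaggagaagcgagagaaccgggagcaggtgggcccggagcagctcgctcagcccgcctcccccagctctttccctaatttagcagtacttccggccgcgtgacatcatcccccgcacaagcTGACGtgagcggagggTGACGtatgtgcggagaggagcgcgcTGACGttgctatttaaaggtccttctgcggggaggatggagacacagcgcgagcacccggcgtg
Shank3: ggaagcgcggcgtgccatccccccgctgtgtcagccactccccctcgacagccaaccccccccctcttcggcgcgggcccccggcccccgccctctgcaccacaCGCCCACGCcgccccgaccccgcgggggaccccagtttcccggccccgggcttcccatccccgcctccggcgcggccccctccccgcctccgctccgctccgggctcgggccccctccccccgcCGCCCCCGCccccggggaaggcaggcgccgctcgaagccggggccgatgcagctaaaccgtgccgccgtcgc
The first Homer1 window held TGACG 3 times, and the second Homer1 window held none of the 4 motifs. TGACG occurred in 2 of the 10 member windows, those of Homer1 and Dlgap4, and in 20.8% of all 32851 windows in the table. The Shank3 window held both Egr forms, read on the minus strand, which occurred in 2.91% and 0.612% of all windows, and no other member window held either. The full TGACGTCA was in none of the member windows and in 1.79% of all. These are matches of letters and were not tested as binding sites.

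Levels of different genes can be compared only per length, so CPM was divided by the length of each gene's merged exons. On that scale, averaged over the 6 libraries, Dlgap4 was the most abundant scaffold transcript at 51.7 ± 1.23 CPM per kb (SD, n = 6). Shank1 followed at 31.4 ± 6.49 and Dlgap3 at 17.5 ± 1.91 CPM per kb, and the library ranges of these 3 did not overlap. Homer3 (12 ± 0.747) and Shank3 (11.2 ± 1.21 CPM per kb) came next with overlapping ranges. Shank2 (6.93 ± 2.5), whose highest library reached into the Shank3 range, Dlgap1 (6.13 ± 0.778) and Homer1 (5.74 ± 0.538 CPM per kb) overlapped one another as well. Homer2 stood at 2.32 ± 0.193 and Dlgap2 last at 1.25 ± 0.415 CPM per kb, with separate ranges.

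In each family 1 paralog led in every library. Shank1 supplied 61.1% to 64.6% of the Shank level per kb in every library, Shank3 18.4% to 26.3% and Shank2 11.5% to 17%. Among the Homer genes, Homer3 supplied 56.8% to 64.5%, Homer1, whose products include the activity-induced short form Homer1a, 25.0% to 31.1%, and Homer2 10.5% to 12.9%. Dlgap4 supplied 66.5% to 68.6% of the Dlgap level, Dlgap3 19.97% to 25.8%, Dlgap1 6.69% to 9.45% and Dlgap2 0.982% to 2.55%. With the longest annotated transcript as the length, the mean share of Dlgap1 moved from 8.01% to 12.1%, that of Dlgap3 from 22.8% to 14.9% and that of Homer1 from 28.6% to 39.4%. The leading paralog of each family was unchanged by that choice, but the order across families was not. With the longest transcript, Dlgap1 stood at 15.3, Shank3 at 14.02, Homer1 at 12.02 and Shank2 at 8.31 CPM per kb, so that the mean of Dlgap1 lay above those of Shank2 and Shank3, and that of Homer1 above that of Shank2.

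**Figure D1:**
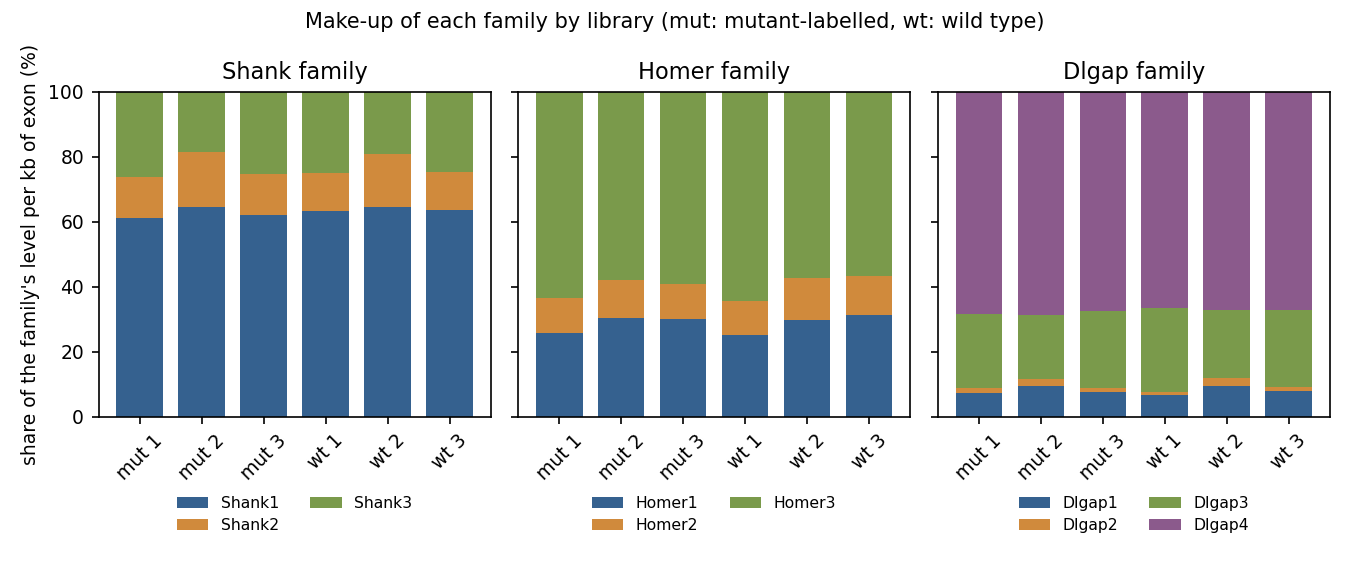
Share (%) of each family's summed level per kb of merged exon held by each paralog in the 6 libraries. Shank1, Homer3 and Dlgap4 fill most of their family's bar in every library, and the share of Shank2 is highest in the 2 libraries numbered 2 (17% and 16.4%).

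The scaffold genes were compared between genotypes to ask whether their transcripts differ in Tshz3 mutant neocortex. None of the 10 passed an adjusted p of 0.05 in the unpaired edgeR test, and none had an unadjusted p under 0.05. Over all tested genes, 0.0752% passed, 11 in number, and 1037 had an unadjusted p under 0.05. DESeq2 also called none of the 10. In no member did the 3 mutant-labelled values stand clear of the 3 wild-type values, against 13.5% of all tested genes. The median log2 fold change of the members was 0.016, beside −0.0073 over all tested genes.

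Shank1, the Shank gene with the highest level, had 265, 418 and 336 CPM in mutant-labelled libraries 1 to 3 and 248, 396 and 320 CPM in wild-type libraries 1 to 3. Both groups were low in library 1 and high in library 2, and they overlapped. Its log2 fold change was 0.08 (SE 0.22, 95% interval −0.44 to 0.60, adjusted p = 0.981). Shank2 had 55.9, 113 and 70.1 CPM in mutant-labelled libraries and 47.2, 103 and 59.0 CPM in wild type. Library 2 was the highest of each group, by far more than the groups differed. The log2 fold change of Shank2 was 0.19 (SE 0.38, interval −0.74 to 1.12, adjusted p = 0.968). Shank3 had 99.5, 104 and 119 CPM in mutant-labelled libraries and 85.2, 103 and 109 CPM in wild type, with the lowest value in wild type 1. Its log2 fold change was 0.12 (SE 0.11, interval −0.12 to 0.37, adjusted p = 0.89).

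Homer1, Homer2 and Homer3 encode adaptors with the same ligand-binding domain. Homer1 stood at 63.0, 74.9 and 68.9 CPM in mutant-labelled libraries and 59.4, 70.3 and 75.6 CPM in wild type. The groups overlapped over nearly their whole range, with a log2 fold change of 0.01 (SE 0.10, interval −0.23 to 0.25). Homer2 had 28.4, 31.1 and 26.8 CPM against 26.4, 32.2 and 30.9 CPM, a log2 fold change of −0.05 (SE 0.10, interval −0.28 to 0.17). Homer3, best known from cerebellar Purkinje cells, had 44.8, 41.2 and 39.0 CPM against 44.0, 39.1 and 39.6 CPM, a log2 fold change of 0.03 (SE 0.08, interval −0.16 to 0.21). Adjusted p was 0.965 to 0.991 for the 3 Homer genes. The table gives 1 count for the 12 annotated Homer1 transcripts, so the short activity-induced form and the long forms cannot be told apart.

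Dlgap4 was the steadiest member, at 442, 429 and 449.5 CPM in mutant-labelled libraries and 429, 426.5 and 447 CPM in wild type, 1.05-fold from lowest to highest. Its log2 fold change was 0.02 (SE 0.05, interval −0.10 to 0.14), the narrowest interval of the 10. Dlgap1 stood at 99.3, 124 and 106 CPM against 91.2, 127 and 111 CPM, with an interval of −0.31 to 0.31. Dlgap3, which is best known in striatal neurons, had 78.8, 66.8 and 84.9 CPM against 88.8, 71.0 and 84.4 CPM. It was lowest in library 2 of both groups, and its log2 fold change was −0.08 (SE 0.11, interval −0.35 to 0.18). Dlgap2 was the scarcest member, with 97 to 244 reads per library, and had 6.60, 9.55 and 6.95 CPM against 4.60, 11.8 and 6.64 CPM. Its interval, −0.79 to 0.80, was the widest apart from that of Shank2. Adjusted p was 0.949 to 0.999 for the 4 Dlgap genes.

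**Figure D2:**
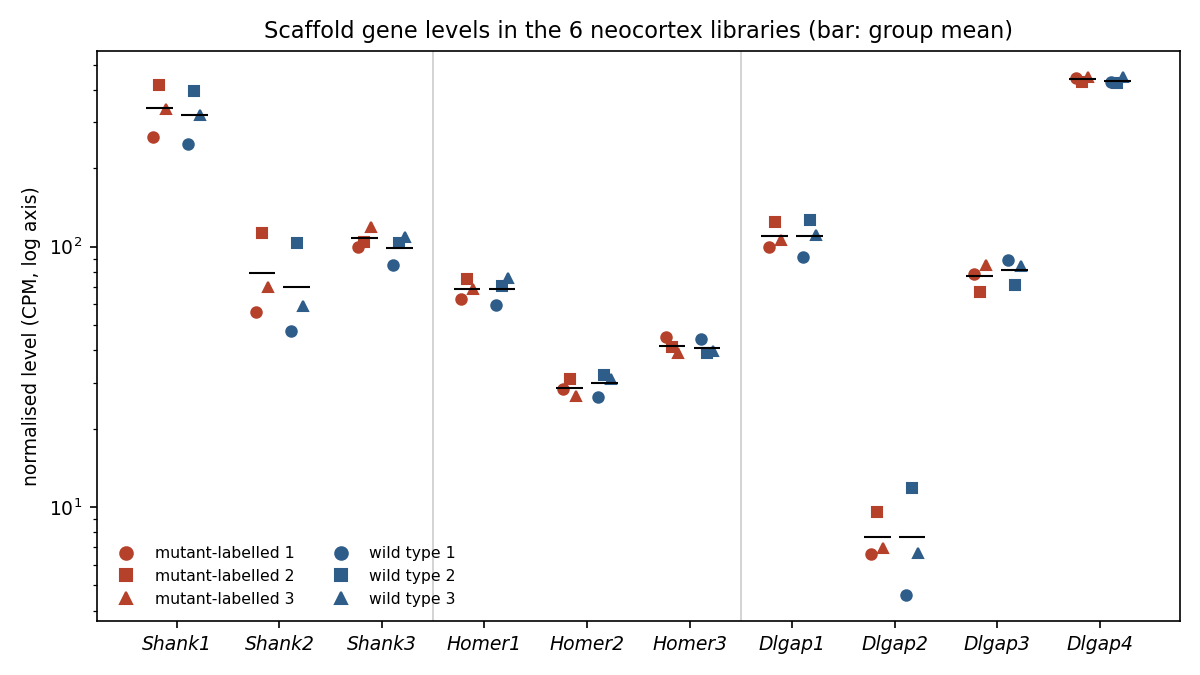
Normalised level (CPM, log axis) of the 10 genes in each library, with the library number given by the symbol and the group mean by a bar. The 2 groups overlap for every gene, and the squares of library 2 stand highest for Shank1, Shank2, Dlgap1 and Dlgap2 in both groups.

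With the library number as a block, which compares mutant-labelled 1 with wild type 1 and so on, Shank2 alone of the 10 passed. It was higher in the mutant-labelled library of each pair, by 0.24, 0.13 and 0.25 on the log2 scale in pairs 1, 2 and 3. Its paired log2 fold change was 0.20 (SE 0.05, interval 0.10 to 0.31, edgeR adjusted p = 0.0398). That is 1 of 10 members, where the paired test called 3.46% of all tested genes and 1.97% as higher. DESeq2 with the same block gave Shank2 an adjusted p of 0.297, and the paired edgeR call was lost without pair 1 (adjusted p = 0.144) or pair 3 (0.407). The labels do not state that the numbers mark pairs, and same-numbered libraries deviated together from their group means (correlations of 0.61, 0.51 and 0.47 across genes).

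The other Shank genes also lay above their wild-type partner in all 3 pairs. Shank1 did so by 0.10, 0.08 and 0.07 on the log2 scale (paired log2 fold change 0.08, SE 0.04, adjusted p = 0.324). Shank3 did so by 0.22, 0.02 and 0.13 (0.12, SE 0.05, adjusted p = 0.191), and without pair 2 it passed, at 0.18 (adjusted p = 0.0114). The paired edgeR fit without pair 2 called 1874 genes in all, against 506 with every pair kept. Dlgap4 was the only member outside the Shank family with the same sign in every pair, by 0.05, 0.01 and 0.01. The remaining 6 members changed sign between pairs, and their paired adjusted p was 0.408 to 0.971. The share of all tested genes with the same sign in every pair was not counted. Unpaired, the intervals of Shank1, Shank2 and Shank3 ran from −0.44 to 0.60, −0.74 to 1.12 and −0.12 to 0.37.

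**Figure D3:**
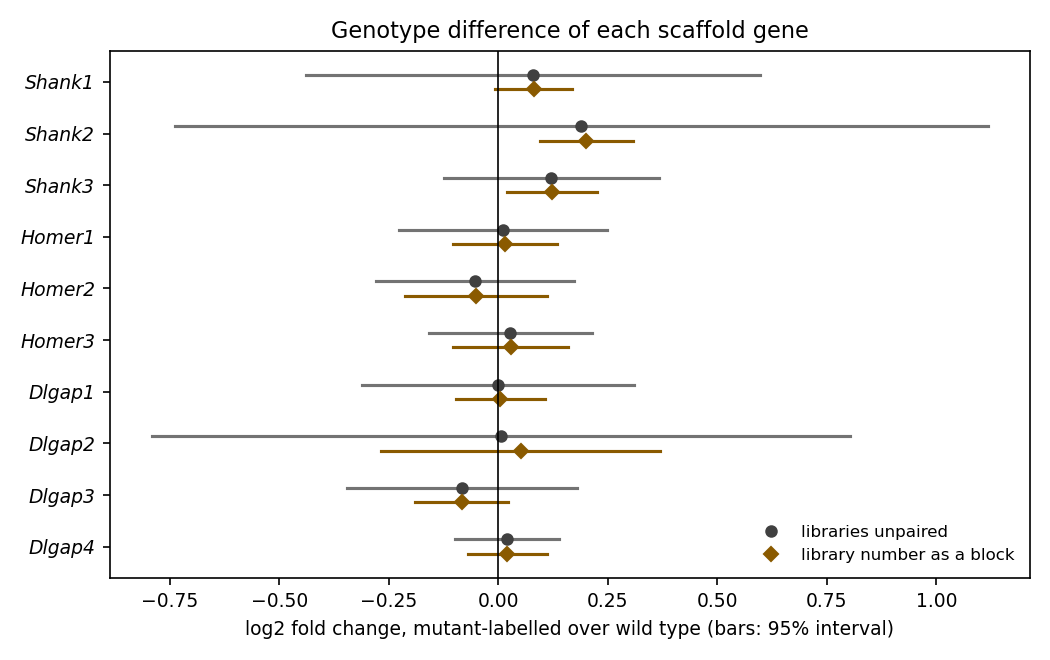
Log2 fold change of each gene, mutant-labelled over wild type, with its 95% interval, without pairing (circles) and with the library number as a block (diamonds). All unpaired intervals cross 0. The paired intervals of Shank2 (0.10 to 0.31) and Shank3 (0.02 to 0.23) do not, although Shank3 did not pass after adjustment. An interval clear of 0 goes with an unadjusted p under 0.05, which 2612 of the 14618 tested genes had in the paired edgeR fit.

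The levels of most scaffold genes moved with the library number. The 5 genes Shank1, Shank2, Homer2, Dlgap1 and Dlgap2 were higher in both libraries numbered 2 than in all 4 others, which held for 15.2% of all tested genes. Dlgap3 alone was lower in both, which held for 14.5% of them. Library 2 exceeded the mean of libraries 1 and 3 by 1.79-fold for Shank2 in the mutant-labelled group and 1.94-fold in wild type. For Shank1 the ratios were 1.39 and 1.4, for Dlgap1 1.21 and 1.26, and for Dlgap2 1.41 and 2.1. Dlgap3 had ratios of 0.817 and 0.819, and the median gene 0.986 and 0.989. Both libraries numbered 1 were below the 4 others for 6 members, Shank1, Shank2, Shank3, Homer1, Dlgap1 and Dlgap2 (10.7% of all tested genes), and above them for Homer3 (12.4%). Shank3 and Dlgap4 were highest in both libraries numbered 3 (8.08%).

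Across the 6 libraries the log2 levels of Shank1, Shank2, Dlgap1 and Dlgap2 ran together, with pairwise Pearson correlations of 0.90 to 0.96. Dlgap3 ran against them, at −0.79 to −0.91. These correlations rest on 6 libraries that share the number pattern above and are given as a description. Shank2 had the largest SD of the members over the 6 libraries, 0.50 in log2 CPM and 2.38-fold from lowest to highest, followed by the scarcer Dlgap2 with an SD of 0.47 and 2.56-fold. The 5 genes whose log2 CPM followed Shank2 most closely were Zfp536 (Pearson r 0.998), Tcp11l1 (0.998), Adar (0.997), Plxna1 (0.996) and Nf1 (0.996), chosen by that correlation over the same 6 libraries. Zfp536 had 1.41, 6.92 and 2.12 CPM in mutant-labelled libraries and 0.853, 5.41 and 1.47 CPM in wild type, a wider swing than that of Shank2.

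**Figure D4:**
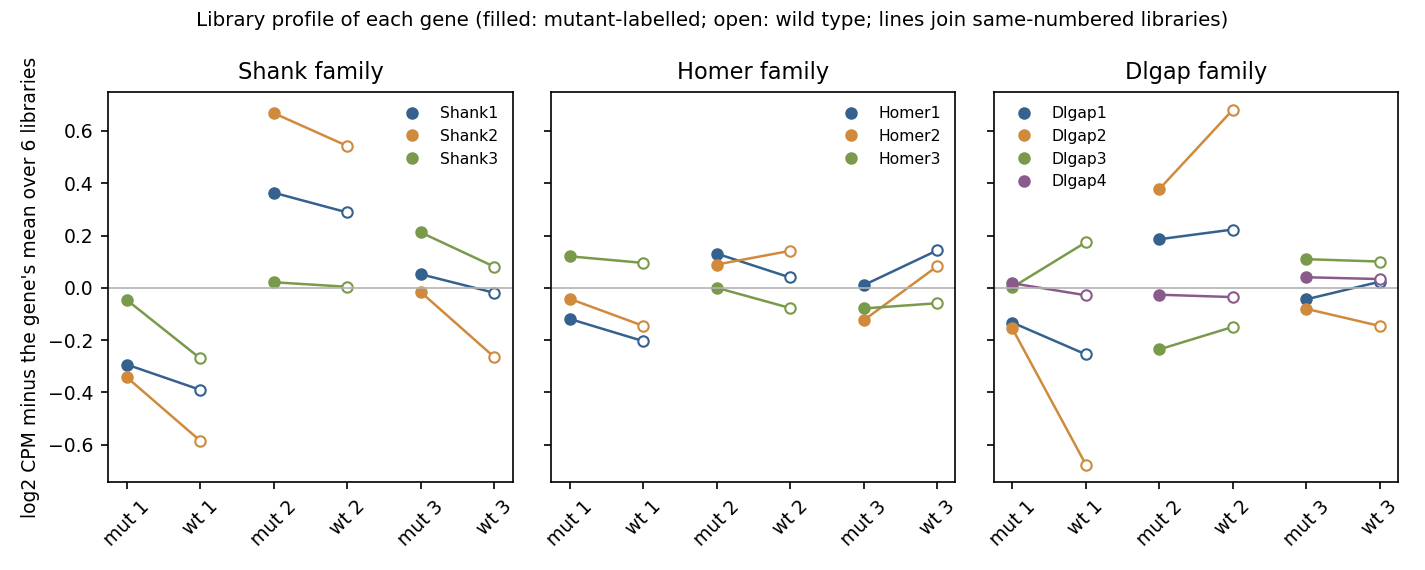
Log2 CPM of each gene minus its mean over the 6 libraries, with same-numbered libraries side by side and joined (filled, mutant-labelled; open, wild type). Shank1, Shank2, Dlgap1 and Dlgap2 are higher in the libraries numbered 2 than in those numbered 1 in both genotypes, Dlgap3 is lower, and Dlgap4 lies near 0 throughout.

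The number pattern went with transcript length over the whole transcriptome. Among 13162 protein-coding genes, the level in library 2 relative to libraries 1 and 3 correlated with the length of the longest transcript (Spearman rho 0.42 in mutant-labelled and 0.43 in wild-type libraries, a description across genes that share the libraries). When these genes were split into 5 equal classes by transcript length, the class with the longest, 5406 bases or more, had a median log2 ratio of 0.17 in mutant-labelled and 0.24 in wild-type libraries. The class with the shortest had −0.07 and −0.10. All 3 Shank genes, Homer1, Homer2 and Dlgap1 belong to the longest class, Dlgap2, Dlgap3 and Dlgap4 to the one below and Homer3 to the second shortest. Shank2, with log2 ratios of 0.84 and 0.96, lay above the median of its class, while Shank3, with −0.07 and 0.09 and a transcript of 7365 bases, lay below it. The part of transcript length in the pattern of single genes was not tested.

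**Figure D5:**
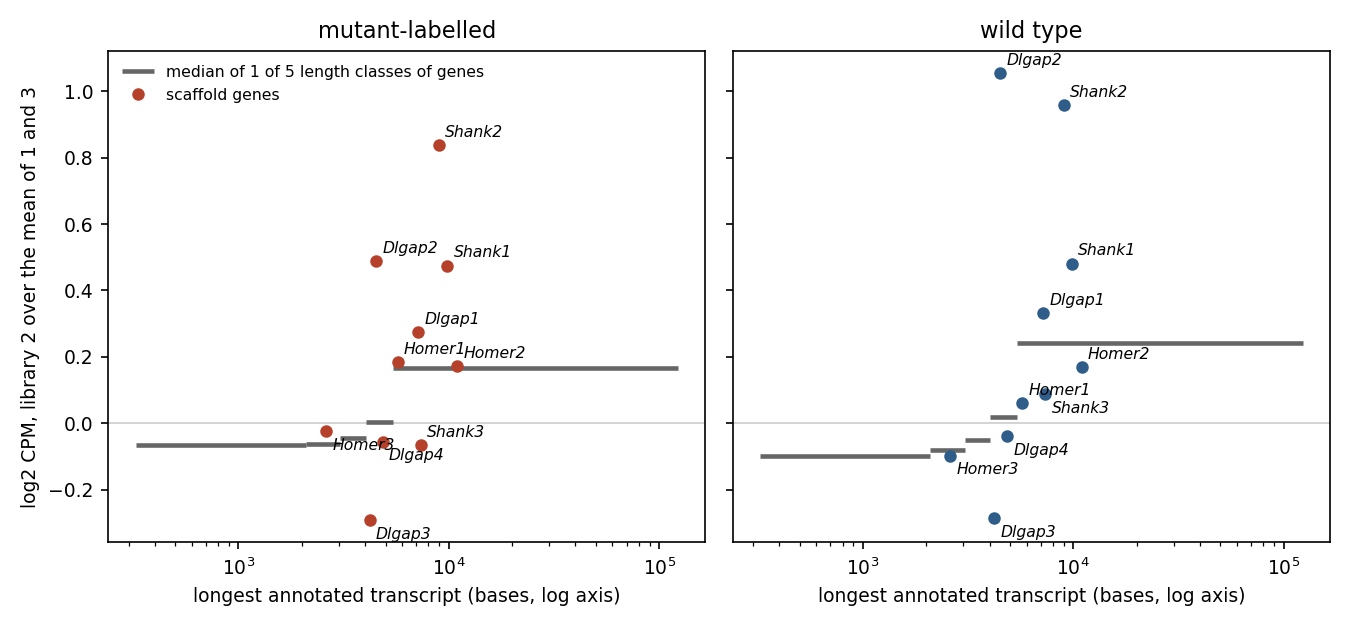
Log2 ratio of library 2 to the mean of libraries 1 and 3 against the longest annotated transcript (bases, log axis), for the scaffold genes (points) and for 5 equal classes of protein-coding genes by transcript length (bars, each at the median and as long as its range). The bars climb from −0.07 to 0.17 in mutant-labelled and from −0.10 to 0.24 in wild-type libraries, with Shank2 and Dlgap2 far above them and Dlgap3 below.

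Cell type markers also moved with the library number, and their part in these patterns was not tested. Summed levels of 8 interneuron markers were 612, 532 and 587 CPM in mutant-labelled libraries 1 to 3 and 663, 530 and 613 CPM in wild type. These sums were lowest in library 2 of both groups, as was Dlgap3. The same held for 8 astrocyte and radial glia markers (1233, 1142 and 1223 CPM against 1234, 1069 and 1161 CPM). It also held for 5 thalamic markers (65.8, 61.1 and 66.5 CPM against 61.2, 54.9 and 64.1 CPM). Among interneuron markers, Gad2 in wild type and Dlx2 and Lhx6 in mutant-labelled libraries were lowest in library 3. The 7 meningeal markers summed to 405, 148 and 141 CPM against 499, 353 and 99.1 CPM. The 5 red blood cell genes found in the table summed to 6.55 to 9.90 CPM in mutant-labelled and 5.26 to 11.9 CPM in wild-type libraries. Nearly all of this was Alas2, at 6.45 to 9.76 and 5.26 to 11.8 CPM. Hba-a1 and Hba-a2 were at 0 throughout, and Hbb-bs and Hbb-bt had no row under those symbols. In pooled tissue, fewer cells of a type and less transcript per cell cannot be told apart.

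The Dlg scaffolds, which carry the Dlgap proteins, did not pass either test in any of 4 cases, and their median log2 fold change was −0.02. Dlg3 had the largest, 0.05 (SE 0.06). Of 12 glutamate receptor subunit and auxiliary genes, none passed unpaired. The paired fit called 1 lower and 0 higher, where it called 1.49% of all tested genes lower. That gene was Grin1, the obligatory NMDA receptor subunit, at 98.4, 110 and 112 CPM in mutant-labelled libraries and 123, 116 and 127 CPM in wild type. The groups did not overlap, as for 13.5% of all tested genes in either direction. The paired log2 fold change of Grin1 was −0.19 (SE 0.05, adjusted p = 0.0471, unpaired 0.588, DESeq2 with the block 0.257). Its paired call was lost without pair 1 (0.341) or pair 3 (0.377). The receptor that Homer binds in cortex, Grm5, was in this list and passed neither test. The median of the list was −0.06.

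Of 10 further Homer ligands, the paired fit called 2 higher and 0 lower, where it called 1.97% of all tested genes higher. None passed unpaired. Both called genes encode calcium release channels of internal stores. Itpr1, an inositol trisphosphate receptor, had 115, 149 and 116 CPM in mutant-labelled libraries and 90.9, 135 and 92.6 CPM in wild type. It shared the high library 2 of Shank2, and rose by a paired log2 fold change of 0.26 (SE 0.05, adjusted p = 0.00734). Ryr3, a ryanodine receptor, had 83.4, 93.6 and 85.3 CPM against 67.0, 84.4 and 73.9 CPM, and rose by 0.22 (SE 0.05, adjusted p = 0.0233). Without pairing their adjusted p was 0.854 and 0.678, and DESeq2 with the block gave 0.0184 and 0.163. The unpaired log2 fold change of Itpr1 ran from 0.12 without mutant-labelled library 2 to 0.46 without wild type 2, and the paired call was lost without pair 3 (adjusted p = 0.22). The paired call of Ryr3 was lost without pair 1 (0.155) or pair 3 (0.268). The remaining 8 ligands, Itpr3, Ryr1, Ryr2, Trpc1, Dbn1, Agap2, Dnm3 and Arhgap32, did not pass either test, and the list's median was −0.02. The other release channels of the list, Itpr3, Ryr1 and Ryr2, had unpaired log2 fold changes of −0.32, 0.02 and −0.13.

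None of 15 Shank and Dlgap partners, such as the actin regulator Cttn, the dynein light chains Dynll1 and Dynll2 and the neuroligins, passed either test (median log2 fold change −0.02). The largest was Cttnbp2, a cortactin-binding protein of dendritic spines, with 237, 208 and 194 CPM in mutant-labelled and 166, 202 and 179 CPM in wild-type libraries (0.22, SE 0.10, adjusted p = 0.709, paired 0.385). Of 11 other regulators of the postsynaptic density, the paired fit called 1 higher and 0 lower, where it called 1.97% of all tested genes higher. The list median was −0.03. The gene called was Anks1b, at 98.4, 121 and 114 CPM against 90.0, 103 and 99.0 CPM (paired log2 fold change 0.19, SE 0.04, adjusted p = 0.0313, unpaired 0.745, DESeq2 with the block 0.221, paired edgeR without pair 3 0.356).

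Homer1, whose short form is activity-induced, was set beside 12 other activity-induced genes. Of these, 1 was lower in the unpaired edgeR test, which called 0.0274% of all tested genes lower, and 5 in the paired one, which called 1.49% lower. Neither test called any of the 12 higher, and the list's median log2 fold change was −0.76. Egr1, an immediate-early transcription factor, fell from 48.0, 51.1 and 53.3 CPM to 15.6, 13.8 and 13.1 CPM (log2 fold change −1.84, SE 0.09, adjusted p = 0.000586). Nr4a1, Ier2, Egr2 and Fosb fell in the paired fit by 0.95, 0.70, 1.78 and 1.51 on the log2 scale. DESeq2 called Nr4a1 and Ier2 with and without the block. It did not call Egr2 (adjusted p = 0.124 with the block, 0.0509 without) or Fosb (0.317 and 0.138). Without pair 3 the paired edgeR calls of Ier2, Egr2 and Fosb were lost (0.135, 0.0854 and 0.236). The other 7, Egr3, Egr4, Fos, Junb, Arc, Npas4 and Bdnf, passed neither edgeR test. Of these, Fos had 3.44, 2.59 and 2.06 CPM in mutant-labelled and 6.26, 7.97 and 13.5 CPM in wild-type libraries. Its log2 fold change was −1.77 (SE 0.33, edgeR adjusted p = 0.19, paired 0.112). DESeq2 called Fos without the block (adjusted p = 9.4e-05) but not with it (0.0557). Bdnf, a neurotrophin gene, lay the other way, at 2.73, 2.71 and 2.82 CPM in mutant-labelled and 1.94, 2.08 and 2.40 CPM in wild-type libraries (log2 fold change 0.37, paired adjusted p = 0.327). For Homer1 the unpaired interval was −0.23 to 0.25 and the paired one −0.10 to 0.13. For Shank3, whose window holds the Egr letters printed above, they were −0.12 to 0.37 and 0.02 to 0.23. Neither edgeR test called Homer1 or Shank3. The difference between Homer1 and the activity-induced genes was not tested, nor was a link of Homer1 or Shank3 to the fall of Egr1.

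Among lists of other cell types and of nuclear RNA, none had a gene past the unpaired edgeR test. Unpaired DESeq2 called Fezf2, a projection neuron marker (adjusted p = 0.00021). Among projection neuron markers, the paired fit called Fezf2 (0.40) and Bcl11b (0.15) higher, and DESeq2 with the block did not call Bcl11b, Penk or Neat1 (adjusted p = 0.112, 0.128 and 0.243). The paired edgeR fit called 1 of 11 striatal markers lower, the opioid peptide gene Penk (−0.55), and 1 of 8 nuclear-retained RNAs lower, Neat1 (−0.55). Of all tested genes it called 1.97% higher and 1.49% lower. Striatal markers summed to 392 to 412 CPM in mutant-labelled and 406 to 459 CPM in wild-type libraries. Of these sums, Foxp1 alone held 173 to 191 and 181 to 224 CPM. In the lists of thalamic, interneuron, astrocyte and radial glia, oligodendrocyte, vessel, microglia, red blood cell and meningeal markers no gene passed either test. Their largest unpaired log2 fold changes were −0.40 for Gbx2, −0.32 for Sst, −0.22 for Hes5, −0.19 for Cspg4, −0.10 for Flt1, −0.38 for Aif1, 0.14 for Alas2 and −0.89 for Aldh1a2. Leaving out 1 library moved each of these 8 values by over 1.5 times.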

How the data were processed

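Per the submitters' processing notes, without roles, HTSeq 0.5.3p9, Bowtie2 2.1.0, TopHat2 2.0.9, CASAVA 1.8.2 and the mm10 build were used. The authors deposited raw read counts per gene, 1 column per library. Of 23420 rows, 4515 held no reads, and 14618 passed edgeR's filterByExpr and were tested. Counts were scaled with TMM (factors 0.990 to 1.02) and tested with the quasi-likelihood test of edgeR 4.0.16 and Benjamini-Hochberg adjustment, called at 0.05. The unpaired fit is the primary one. Same-numbered libraries deviated together across genes (r = 0.61, 0.51 and 0.47, other pairs -0.48 to -0.07), a pairing taken from the data and not from the labels, so fits with the number as a block are given where they change a call. DESeq2 1.42.0 was an alternative. Intervals are 95%. Lengths and positions are from GENCODE vM21 (GRCm38). The edgeR procedure was tested on simulated data. Where separate pools are the replicates, unpaired p-values measure the spread between pools. With the block, the spread shared by same-numbered libraries is taken out first, so paired p-values measure only what remains of it. The members and gene lists were chosen with earlier results of these data known. Text names all members, from each other list the genes past 0.05 in either edgeR fit or otherwise the one with the largest fold change, and the 5 genes most correlated with Shank2. No list was tested as a set. The result for 1 listed marker is not reported here.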

Additional observations from a re-analysis of the deposited data

How the results depend on the processing

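None of the 10 scaffold genes was called under RLE or upper-quartile scaling, DESeq2 with or without the block, no low-count filter, or with any library left out. The replicate block called 1 (Shank2, 0.20), and the block without pair 2 called 2 (Shank2 0.25, Shank3 0.18). Over all genes the unpaired edgeR count of 11 became 17 with upper-quartile scaling, 20 without the filter, 98 with DESeq2, 506 with the block, 185 with DESeq2 and the block, 295, 1874 and 62 with the block without pair 1, 2 or 3, and 3 without both libraries numbered 2, an alternative chosen after seeing the data. With 1 library left out it ranged from 3 to 35, the 35 without wild type 2. The cause was not tested.

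Near-zero log2 fold changes turned sign. Dlgap1 was 5.3e-05 with RLE, 0.00079 with DESeq2, 0.0071 without the filter, 0.0047 with the block, 0.0070 with DESeq2 and the block, 0.027 and 0.042 with the block without pair 2 or 3, and 0.022 without both libraries numbered 2. Homer1 was -0.019 and -0.025 with the block without pair 1 or 2, and -0.031 without both libraries numbered 2. With the block, Dlgap2 was -0.14 without pair 1, Homer2 0.025 without pair 3 and Alas2 -0.12 without pair 2 (-0.14 without both libraries numbered 2). With 1 library left out, log2 fold changes ranged from -0.10 to 0.26 for Shank1, -0.15 (without mutant 2; -0.030 without wild type 1) to 0.59 (without wild type 2) for Shank2, 0.02 to 0.19 for Shank3, -0.082 to 0.087 for Homer1, -0.14 to 0.0068 for Homer2, -0.027 to 0.082 for Homer3, -0.12 to 0.12 for Dlgap1, -0.26 to 0.46 for Dlgap2, -0.17 to 0.0090 for Dlgap3, 0.01 to 0.04 for Dlgap4, -0.89 (without wild type 2) to 0.19 (without wild type 3) for Gbx2, -0.074 (without wild type 2) to 0.58 (without wild type 1) for Alas2, -0.54 (without wild type 2) to -0.16 (without mutant 2) for Sst, -0.35 (without wild type 1) to -0.12 (without wild type 3) for Hes5, -0.33 (without mutant 2) to -0.11 (without mutant 1) for Cspg4, -0.15 (without mutant 1) to -0.0092 (without mutant 3) for Flt1, and, without mutant 1 to without wild type 1, -0.57 to -0.15 for Aif1 and -1.71 to -0.40 for Aldh1a2. With 3 pools a group, the spread between libraries limits what can be detected for Shank2 and Dlgap2. Of the other paired calls named, those of Bcl11b, Penk and Neat1 were lost without pair 1 (adjusted p = 0.146, 0.211 and 0.204) or pair 3 (0.452, 0.136 and 0.0951), and those of Egr1, Nr4a1 and Fezf2 passed without any 1 pair.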

Other observations

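Within the glutamate receptor list, the NMDA receptor subunit genes Grin2a and Grin2b had the largest fold changes and passed neither edgeR test. They were singled out after their values were seen. Grin2a had 0.518, 0.417 and 0.504 CPM in mutant-labelled libraries and 0.759, 0.869 and 1.03 CPM in wild type, groups that did not overlap (log2 fold change -0.88, SE 0.29, adjusted p = 0.522, paired 0.186). Grin2b had 3.25, 3.17 and 3.37 CPM against 3.41, 4.73 and 5.01 CPM, also without overlap (-0.42, SE 0.19, adjusted p = 0.727, paired 0.198). In 13.5% of all tested genes the groups did not overlap. Within the list this held also for Grin1 and Gria1, which were lower in the mutant-labelled libraries as well.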
